A study of Mus musculus with 4 samples.

Results

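The 10 genes described here belong to the prostaglandin and leukotriene pathways, and they were followed in CD8+ T cells sorted from mouse B16 melanoma. They are the cyclooxygenase genes Ptgs1 and Ptgs2, the prostaglandin D2 synthase gene Hpgds, the prostaglandin dehydrogenase gene Hpgd, the prostanoid receptor genes Ptger4, Ptger2, Ptgir and Ptgdr2, and, on the leukotriene side, Alox5ap and the receptor gene Ltb4r1. The members are a fixed list of gene names with no threshold on their values, drawn up with earlier results of these data known. Of the 10, 9 are among the 15981 genes listed in any table of the series, and Hpgd is listed in none. Pmel-1 CD8+ T cells, which carry a transgenic T cell receptor against a melanocyte antigen and the Thy1.1 allele, were prepared in vitro over 5 days as Tc1 (interferon-producing) or Tc9 (IL-9-secreting) cells. By the study's methods, Tc9 cells were polarized for the first 3 days with IL-4, TGF-β and an antibody against IFN-γ, and Tc1 cells with recombinant human IL-2. Both then received IL-2 for 2 more days. Both kinds of cell were injected intravenously into Thy1.2+ C57BL/6 hosts that had carried a subcutaneous B16 tumor for 10 days, and they were recovered from the tumors by flow cytometry 14 days later. RNA of several mice was pooled into 2 samples per group, so the 2 Tc1 and 2 Tc9 libraries are pools, and nothing in the sources used here says that the pools were separate experiments. The p-values below therefore measure the spread between these pools only. The study gave hosts in such transfers cyclophosphamide, dendritic cells and recombinant human IL-2 as adjuvant treatments. The hosts kept immune cells of their own, the tumors came from 1 cell line, and the age of the mice is not given in the sources used here.

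Prostaglandins are made from arachidonic acid, which a phospholipase frees from membranes and a cyclooxygenase oxidizes. Terminal synthases then give prostaglandin D2, E2, prostacyclin or thromboxane. Leukotrienes come from the same fatty acid through 5-lipoxygenase and its activating protein FLAP. In tumors, prostaglandin E2 made by tumor and myeloid cells acts on T cells through the EP2 and EP4 receptors, which raise cyclic AMP and dampen effector functions, whereas leukotriene B4 attracts CD8+ T cells through BLT1. The study compared lipid handling, arachidonic acid included, in Tc1 and Tc9 cells.

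The tables used here list genes in order of their identifier and reach different points, which decides what can be said of each member. Tc9 replicate 2 covered all 10 members and Tc1 replicate 2 covered 9. Tc9 replicate 1 covered 4 members and Tc1 replicate 1 covered Alox5ap alone. A gene not listed within the range of a table was counted as 0, which is read against a floor of 3 counts, or 0.0952 to 0.0956 CPM (counts scaled by library depth and composition). Library depths were 30822953 to 31927162 counts, within 1.04-fold of each other. The ranges gave 3 kinds of comparison. Over the 4 libraries, the quasi-likelihood test of edgeR covered 1284 genes with enough counts. Over Tc1 replicate 2 and both Tc9 libraries it covered 2622 genes, with the spread taken from the Tc9 pair and the lone Tc1 library assumed to vary like it. For members reached by the replicate 2 libraries alone, the ratio of these libraries is given with an interval for counting error and with no test. Median differences over all genes were close to 0 in each, at 0.0014, 0.049 and 0.03 on the log2 scale. The T cell label held: Cd8a had 19330 to 21622 counts in every library, and all T cell markers reached had at least 2758 counts. Cd3e and Cd3g were higher in Tc9 (edgeR log2 fold changes 0.73 and 0.49, adjusted p = 0.0108 and 0.00995) and Cd2 was lower (-0.44, adjusted p = 0.0107). Markers of other cells were low apart from single genes, as given beside the members they bear on.

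Receptors for prostaglandin E2 were the best measured members. Ptger4 encodes EP4 and lies on the minus strand at chr15:5206661-5244187 (mm10). It had 1952 counts in Tc1 replicate 2 and 2373 in Tc9 replicate 2, or 62.2 and 75.6 CPM. Ptger2 encodes EP2 and lies on the plus strand at chr14:44988195-45003820. It had 357 and 420 counts in the same libraries, or 11.4 and 13.4 CPM. Both were slightly higher in the Tc9 library. The log2 ratio of Ptger4 was 0.28, or 1.22-fold, with a 95% Wilson interval of 0.20 to 0.37. The log2 ratio of Ptger2 was 0.23, or 1.18-fold, with an interval of 0.03 to 0.44. The replicates of other genes show how much 2 libraries of the same group differ at such counts. Among genes of 1000 to 5000 counts, 95% differed between the Tc9 replicates by less than 0.49 and between the Tc1 replicates by less than 0.16 on the log2 scale. Ptger4 was thus within the Tc9 spread and beyond the Tc1 spread. Ptger2 was within both spreads at its count, 0.56 and 0.26. Ptger4 overlaps the end of Ttc33 on the opposite strand, and Ttc33 had 295 counts in Tc9 replicate 2. Whether the counting used strand is not given in the sources used here.

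Ptgir, the prostacyclin receptor gene, had the largest ratio among the 3 members with at least 50 counts in a library. It is a protein-coding gene on the plus strand at chr7:16906490-16910905 with no overlapping gene in the annotation. It had 70 counts in Tc1 replicate 2 and 157 in Tc9 replicate 2, or 2.23 and 5.0 CPM, and the counting intervals of the CPM values did not overlap (1.74 to 2.82 against 4.25 to 5.85). The log2 ratio was 1.14, or 2.21-fold higher in the Tc9 library, with a Wilson interval of 0.76 to 1.57. This is larger than the difference between replicates of 95% of genes at 50 to 200 counts, which was 0.54 in Tc1 and 0.79 in Tc9. With 1 library a group it has no replicate check of its own, and on the log2(FPKM + 1) scale, which shrinks low genes, it was 0.62.

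The balance of the 3 cyclic AMP-raising receptors in the libraries can be read without any scaling between libraries. Of the 2379 counts that fell on Ptger4, Ptger2 and Ptgir in Tc1 replicate 2, Ptgir took 2.94% (Wilson interval 2.34% to 3.7%). Of the 2950 such counts in Tc9 replicate 2 it took 5.32% (4.57% to 6.19%). Ptger4 took 82.1% and 80.4%, and Ptger2 took 15.0% and 14.2%. Ptger4 led in both libraries, and of the 3 shares that of Ptgir was the one whose intervals did not overlap.

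The 250 bases before the annotated start of Ptger4 and of Ptgir are shown because these genes are the most abundant member and the best-counted member past 2-fold. They are given on the strand of the gene, from RefSeq on GRCm38.p6 (mm10), at chr15:5244188-5244437 (minus strand) and chr7:16906240-16906489 (plus strand), and capitals mark GC boxes (GGGCGG or its reverse complement CCGCCC).
Ptger4: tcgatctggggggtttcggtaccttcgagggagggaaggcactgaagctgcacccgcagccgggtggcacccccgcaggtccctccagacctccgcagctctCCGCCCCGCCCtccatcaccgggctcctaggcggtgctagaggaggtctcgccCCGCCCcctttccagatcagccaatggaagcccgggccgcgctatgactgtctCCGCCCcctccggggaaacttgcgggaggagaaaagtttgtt
Ptgir: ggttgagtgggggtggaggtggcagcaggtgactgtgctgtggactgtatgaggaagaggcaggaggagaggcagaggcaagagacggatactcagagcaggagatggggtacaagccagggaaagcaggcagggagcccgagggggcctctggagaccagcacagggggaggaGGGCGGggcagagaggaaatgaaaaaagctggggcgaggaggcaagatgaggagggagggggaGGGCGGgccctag
The Ptger4 window is 66.8% G or C and holds 4 GC boxes, and the Ptgir window is 63.6% G or C and holds 2. The median of all promoters is 52.4%, and 32.7% of the 32851 promoter windows of this length hold a GC box on either strand. The full cyclic AMP response element TGACGTCA (in 1.55% of all windows), its core TGACG (17.8%, overlapping the full element) and the STAT motif TTCNNNGAA (7.02%) were searched on both strands too. None of the 9 members with a RefSeq window held any of these 3 motifs in it. A match describes letters and not binding, and the absence of a match concerns this window only.

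**Figure D1:**
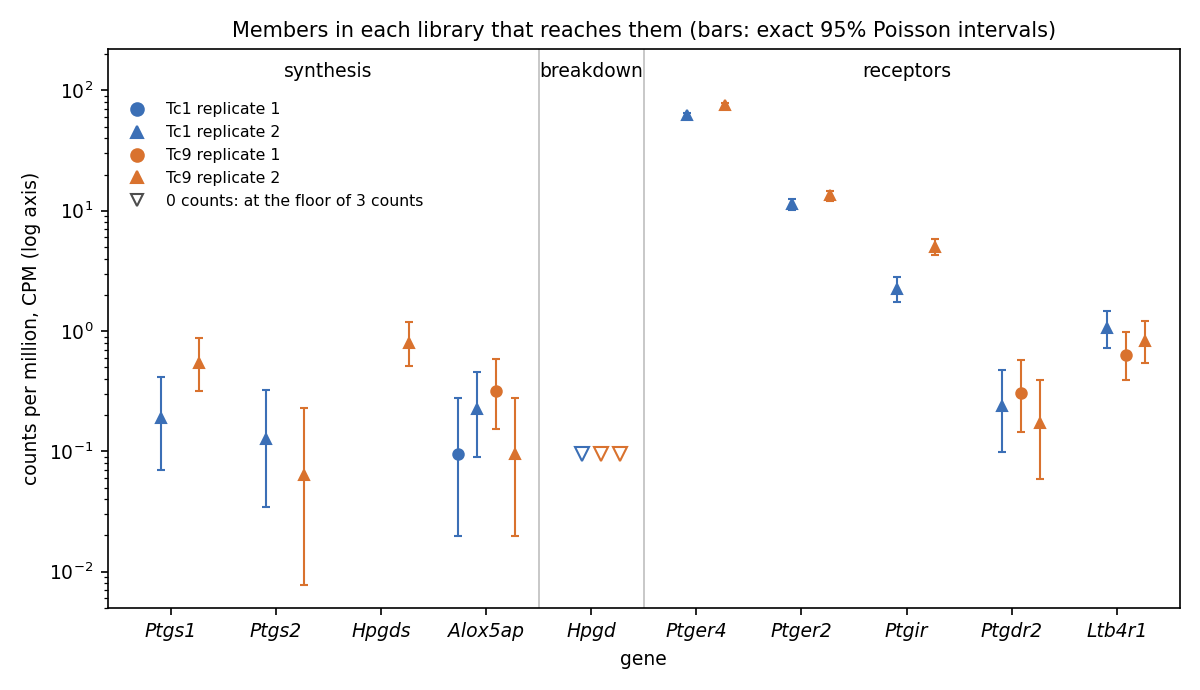
CPM (log axis) of each member in each library whose table reaches it, grouped by role, with Tc1 in blue, Tc9 in orange, circles for replicate 1, triangles for replicate 2 and bars for exact 95% Poisson intervals. Ptger4, Ptger2 and Ptgir stand above 2 CPM, the replicate 2 intervals are apart for Ptger4 and Ptgir and overlap for Ptger2, and open triangles put Hpgd, at 0 counts, at the floor of 3 counts.

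Ptgdr2, the gene of the prostaglandin D2 receptor CRTH2 known from type 2 lymphocytes, was near the floor. It had 7.42 expected counts in Tc1 replicate 2, 9.59 in Tc9 replicate 1 and 5.37 in Tc9 replicate 2. The Tc1 value lay between the Tc9 values. The edgeR test over 3 libraries gave a log2 fold change of 0.10 (SE 0.71, adjusted p = 0.942), with an approximate 95% interval of -1.28 to 1.48. Ptgdr2 passed the filter on low counts through the 10 rounded counts of Tc9 replicate 1 alone, and without that library the log2 ratio was -0.35. The expected counts are not whole, and the gene overlaps Ccdc86 on the opposite strand, which had 2416.41 to 3216.63 counts, so its counts are uncertain.

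The 2 leukotriene members, Ltb4r1 and Alox5ap, had 33 counts or fewer in every library. Ltb4r1 encodes BLT1, the high-affinity leukotriene B4 receptor, at chr14:55765962-55768494 on the plus strand with no overlapping gene. It had 33 counts in Tc1 replicate 2, 20 in Tc9 replicate 1 and 26 in Tc9 replicate 2, or 1.05, 0.637 and 0.829 CPM. Both Tc9 values were below the Tc1 value, and the difference did not pass the edgeR test over 3 libraries (log2 fold change -0.52, SE 0.40, adjusted p = 0.441, interval -1.30 to 0.26). Alox5ap encodes FLAP, which presents arachidonic acid to 5-lipoxygenase, and it was the one member that every table reached. Its counts were 3 and 7 in Tc1 replicates 1 and 2 and 10 and 3 in Tc9 replicates 1 and 2, with FPKM values (fragments scaled by gene length and library size, as deposited) of 0.11, 0.25, 0.36 and 0.11. The groups overlapped. Alox5ap failed the count filter over 4 libraries. Without the filter, edgeR gave a log2 fold change of 0.37 (SE 0.79, adjusted p = 0.755, interval -1.18 to 1.93), and leaving out Tc1 replicate 1 or Tc9 replicate 1 turned it to -0.10 or -0.71. The test over 3 libraries gave -0.10 (SE 0.84, adjusted p = 0.947). Dyrk4, Pp2d1, Smim27, Chrna2 and Dynlt1a had the patterns most like Alox5ap across the 4 libraries, at root mean square differences of 0.245 to 0.331 in centred log2 CPM. Alox5ap itself rested on 3 to 10 counts.

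The 3 members that make prostaglandins, Ptgs1, Ptgs2 and Hpgds, had 25 counts or fewer in every library that reached them. Ptgs1, the constitutive cyclooxygenase, had 6 counts in Tc1 replicate 2 and 17 in Tc9 replicate 2. Its log2 ratio was 1.25, or 2.38-fold higher in the Tc9 library, with a Wilson interval of 0.205 to 2.80. Genes of 10 to 50 counts differed between replicates by up to 0.88 in Tc1 and 1.17 in Tc9 for 95% of them. The ratio of Ptgs1 was just above the Tc9 value. Ptgs1 lies near the low end of that count range, however, where counting error is largest. It also had 10 counts or more in the Tc9 library alone, so the comparison is no support for a difference. The value fell to 0.165 on the log2(FPKM + 1) scale and to 0.819 on the log2(FPKM + 0.1) scale. Ptgs2, the inducible cyclooxygenase, had 4 and 2 counts in the same libraries, and a difference was not detectable at this depth (log2 ratio -0.58, interval -3.22 to 1.22). Hpgds, the hematopoietic prostaglandin D2 synthase, was reached by Tc9 replicate 2 alone, with 25 counts (exact Poisson interval 16.2 to 36.9) or 0.797 CPM, and no comparison with Tc1 was possible. Hpgd, whose enzyme starts the breakdown of prostaglandins, was not listed in any of the 3 libraries that reached it.

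Several of these genes are also known from mast cells, platelets or macrophages, and the markers of those cells were counted in the same libraries. In each of the 3 libraries that reached them, 6 of 8 mast cell and basophil markers were at or under 3 counts, with Cpa3 at 0 to 3 and Fcer1a at 0 to 1. The summed level of that list was 4.97 CPM in Tc1 replicate 2 and 12.9 and 12.2 CPM in the Tc9 libraries. Kit carried most of it (142, 389 and 366 counts, edgeR adjusted p = 0.018 over 3 libraries), and without Kit the sums were 0.446, 0.542 and 0.51 CPM. Of 5 platelet markers, Itga2b had 67, 62 and 71 counts and Gp1ba had 37, 43 and 31, while Pf4 had 4, Ppbp 1 and Gp9 0 in Tc9 replicate 2. The platelet list summed to 3.31, 3.35 and 3.41 CPM. The macrophage and monocyte list summed to 7.23 and 7.58 CPM in Tc1 and 11.8 and 14.3 CPM in Tc9. These sums cover the 5, 10, 9 and 10 genes that the 4 libraries reached. Cd68 made up nearly all of this (226, 221, 358 and 439 counts, edgeR adjusted p = 0.00295 over 4 libraries), and the other genes of the list summed to 0.0635 to 0.541 CPM, with Lyz2 at 0, 3 and 0 counts. B cell markers summed to 5.41 CPM in Tc1 replicate 2 and 12.7 and 15.5 CPM in Tc9, and to 0.414 to 0.605 CPM without Cd79b (155, 380 and 473 counts). Neutrophil markers were at 4 counts or fewer. Of the 5 melanoma markers, Mlana, Tyrp1 and Dct were at 0 wherever reached. Pmel had 69.97 and Tyr 6 counts in Tc1 replicate 2, against 116.53 and 12.89 in Tc9 replicate 2, with no test. The part of Kit, Cd68 and Cd79b, which were higher in Tc9, in the values of the members was not tested. In bulk RNA, fewer cells of a type and less RNA per cell cannot be told apart.

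Levels of the members relative to each other can be compared per gene length, in FPKM. In Tc9 replicate 2 the order was Ptger4 (24.04 FPKM), Ptger2 (4.2), Ptgir (1.59), Ltb4r1 (0.67), Hpgds (0.26), Ptgs1 (0.2), Alox5ap (0.11), Ptgdr2 (0.07) and Ptgs2 (0.02). Counting intervals of neighbours were apart down to Ltb4r1 and Hpgds and overlapped from Hpgds on. In Tc1 replicate 2 the order began with Ptger4 (19.03), Ptger2 (3.34), Ltb4r1 (0.83) and Ptgir (0.69), of which the last pair overlapped. Alox5ap, Ptgdr2, Ptgs1 and Ptgs2 followed at 0.25 to 0.03. Ptger4 was 5.7-fold above Ptger2 in Tc1 replicate 2 and 5.72-fold above it in Tc9 replicate 2. The gap from Ptger2 to Ptgir was 4.84-fold in the Tc1 library and 2.64-fold in the Tc9 library. Ptger4 stood above 72.3% of the 7408 genes listed in Tc1 replicate 2 and 78.1% of the 15442 listed in Tc9 replicate 2, which are different sets of genes, whereas both cyclooxygenase genes were at or under 0.2 FPKM in both.

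**Figure D2:**
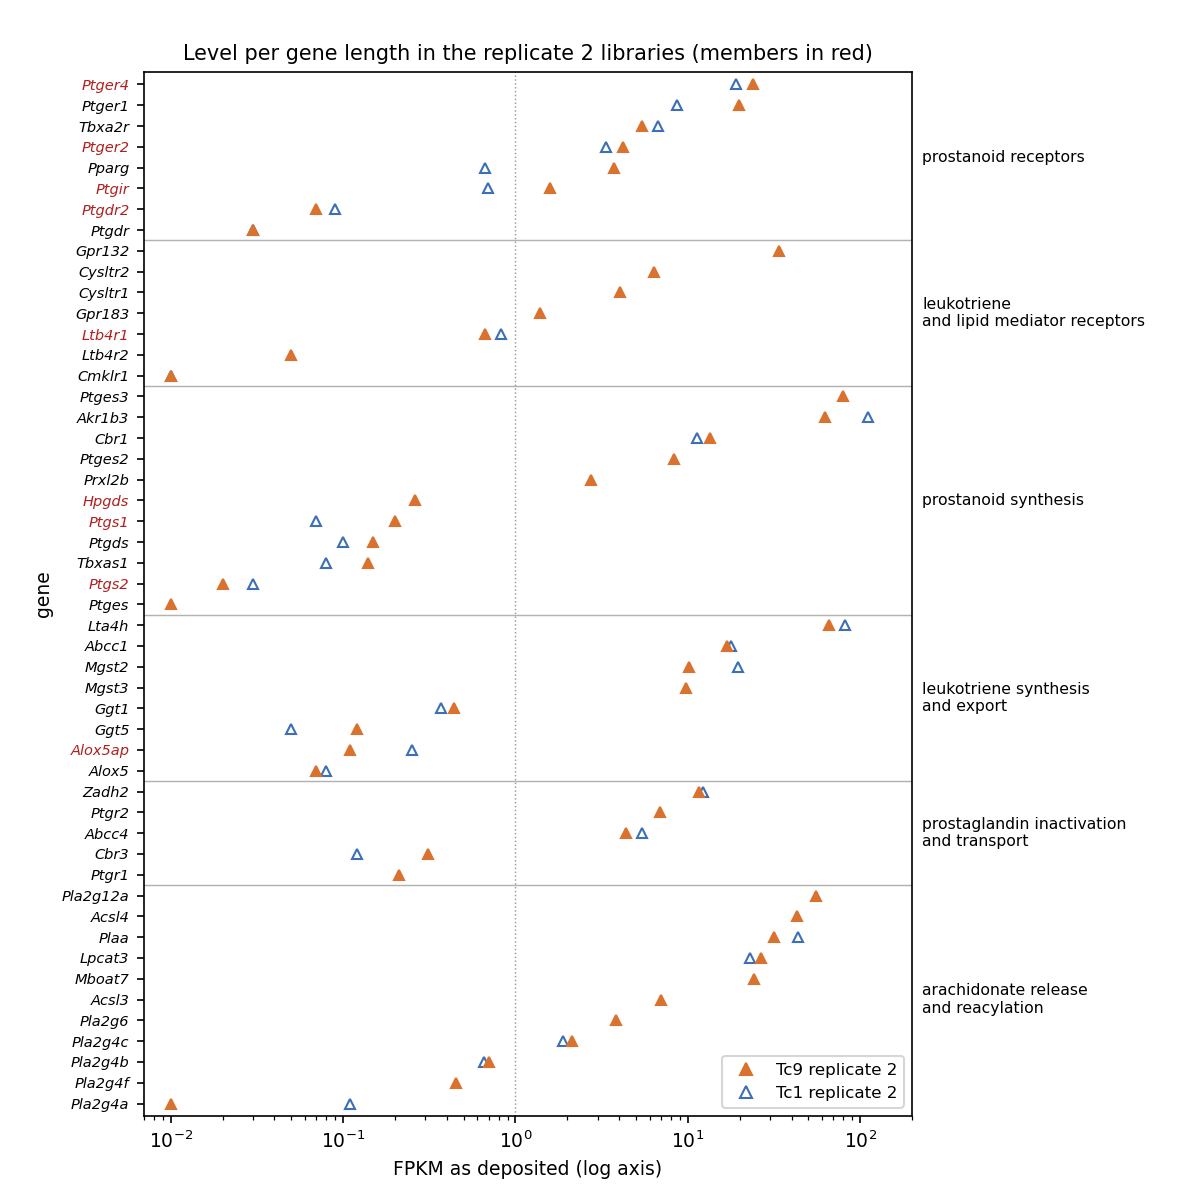
Deposited FPKM (log axis) of members (red names) and other pathway genes by role in Tc1 replicate 2 (open blue triangles, where reached and above 0) and Tc9 replicate 2 (filled orange triangles); the dotted line is at 1 FPKM. Ptger4 leads the prostanoid receptors at 19.03 and 24.04 FPKM, and all synthesis members lie below 1 FPKM.

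Members past each threshold were counted beside all genes. Over 4 libraries no member passed the count filter, and 34.1% of the genes tested there passed the threshold. Over 3 libraries, 0 of the 3 members tested passed, where 10.7% of all genes did. Their unadjusted edgeR p-values were 0.241 to 0.905, and DESeq2 gave an adjusted p for Ltb4r1 alone (0.761) and none for Ptgdr2 and Alox5ap. Ptgdr2 and Alox5ap entered this test through the 10 counts of Tc9 replicate 1 alone. Between the replicate 2 libraries, 5 members had at least 10 counts in one of them, 4 of the 5 were higher in Tc9 (3261 of all 6225 genes were), and 2 (Ptgir and Ptgs1) were at least 2-fold higher, where 10.9% of all genes were. Ptgs1 reached 10 counts in the Tc9 library alone, where it is high, so its place in these counts and in the median is no support for a difference. None was 2-fold lower, where 4.95% of genes were. The median log2 ratio of the 5 members was 0.28, against 0.03 over all genes with such counts.

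The wider pathway was followed through 8 lists of 89 genes in all, members included, of which 78 were listed in any table. Over 4 libraries 7 of them were tested, 1 was higher in Tc9 (17.4% of all genes were) and 1 was lower (16.7% were). Alox15, a lipoxygenase that oxygenates arachidonic and linoleic acid, was the higher one. Its counts were 11 and 6 in Tc1 and 36 and 27 in Tc9, and edgeR gave a log2 fold change of 1.88 (SE 0.40, adjusted p = 0.00649). The groups did not overlap, at a low level of 0.39 FPKM in Tc9 replicate 2. Alox15 had at least 10 counts in both Tc9 libraries and in 1 Tc1 library, so it passed the count filter through the group where it is high. Its place in the count of list genes is thus no support for a difference. Akr1b3, the aldose reductase that also has prostaglandin F synthase activity, was the lower one. Its expected counts were 3930.81 and 4482.17 in Tc1 and 2351 and 2424.66 in Tc9, with a log2 fold change of -0.81 (SE 0.12, adjusted p = 0.000753). Without Tc1 replicate 2, where edgeR called 82 genes higher and 54 lower, the log2 fold change was 1.51 for Alox15 (adjusted p = 0.095) and -0.713 for Akr1b3 (adjusted p = 0.0638).

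Over 3 libraries 20 genes of the lists were tested, 2 were higher in Tc9 (7.51% of all genes were) and 1 was lower (3.2% were). Crem, a transcription factor gene induced by cyclic AMP, had 2121 and 1755 counts in the Tc9 libraries against 674 in Tc1 replicate 2. Its log2 fold change was 1.52 (SE 0.25, adjusted p = 0.0156), and without the count filter, where edgeR called no gene, it was again 1.52 with an adjusted p of 0.214. Alox15 and Akr1b3 were the others, and Alox15 again passed the count filter through the Tc9 libraries alone. The place of Alox15 among the higher genes is therefore no support for a difference. Ephx1, an epoxide hydrolase gene, did not pass (777 counts against 1232 and 1296, log2 fold change 0.70, adjusted p = 0.0983), nor did Lta4h, whose enzyme makes leukotriene B4 (4999 counts against 4084 and 3879, log2 fold change -0.33, adjusted p = 0.362).

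**Figure D3:**
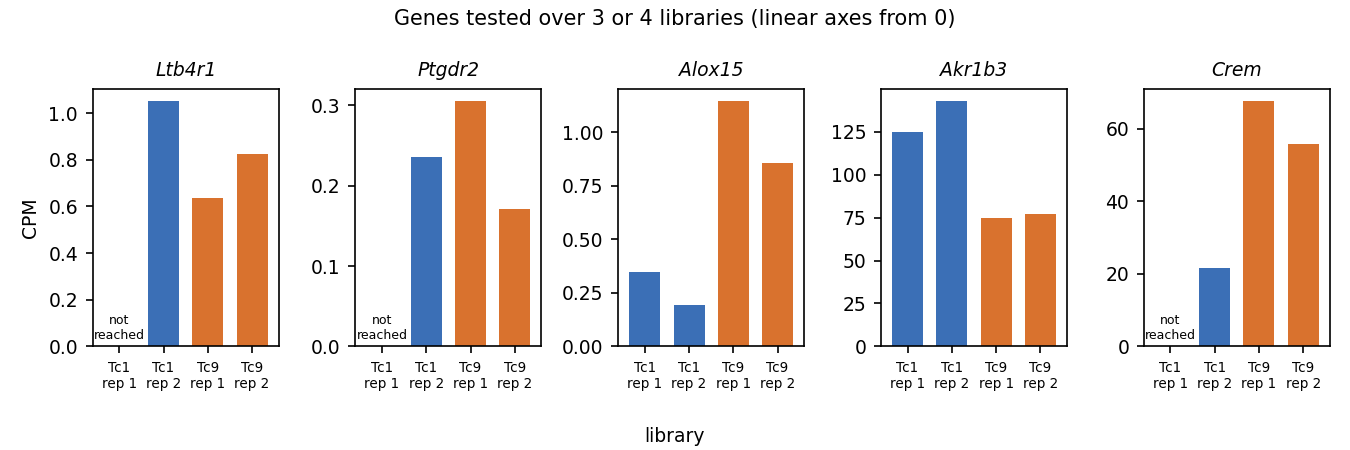
CPM (linear axes from 0) of 2 members, Ltb4r1 and Ptgdr2, and of the 3 pathway genes past the edgeR threshold, in each library, with 1 bar a library and libraries not reached marked so. Tc1 and Tc9 bars do not overlap for Alox15 and Akr1b3 over 4 libraries and Crem over 3, the Ptgdr2 bar of Tc1 lies between the Tc9 bars, and Ltb4r1 is highest in the lone Tc1 library.

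Between the replicate 2 libraries, 43 genes of the lists had enough counts, of which 26 were higher in Tc9 (3261 of all 6225 genes were), 9 were at least 2-fold higher (10.9% of all genes were) and 2 were at least 2-fold lower (4.95% were). Their median log2 ratio was 0.16, against 0.03 over all genes. Ptgs1, Ggt5, Cbr3 and Alox15 had at least 10 counts in the Tc9 library alone, and Pla2g4a and Ephx2 in the Tc1 library alone. The place of these genes in the counts and in the median is therefore no support for a difference. Of the 6 prostanoid receptor genes with enough counts, 5 were higher and 3 were at least 2-fold higher, with a median of 0.71, to be read against the same 10.9% of all genes that were 2-fold higher. Beside Ptgir these were Pparg and Ptger1. Pparg, a nuclear receptor that binds prostaglandin J2 derivatives and other lipids, had 41 and 209 counts (4.91-fold, log2 interval 1.87 to 2.83). The list counts this nuclear receptor with the prostanoid receptors, so the count of 3 and the median rest partly on it. The log2 ratios of the others were 1.14 for Ptgir and Ptger1, 0.28 for Ptger4, 0.23 for Ptger2 and -0.35 for Tbxa2r. Ptger1, the EP1 receptor gene, had 538.33 and 1187.91 expected counts (2.2-fold), which are not whole numbers, so its counts are uncertain. Tbxa2r, the thromboxane receptor gene, was the one that was not higher, with 359 and 281 counts and 5.44 FPKM in Tc9 replicate 2. The remaining 2-fold differences were mostly at few counts. Adcy9 with 25 and 53, Ggt5 with 6 and 16 and Cbr3 with 4 and 10 were higher. Ephx2 with 14 and 5 and Pla2g4a with 10 and 1 were lower. Over 3 libraries Cbr3 (4 counts against 5 and 10, log2 fold change 0.89) did not pass the edgeR test. Adcy9, an adenylyl cyclase gene, did not pass the edgeR test over 4 libraries (log2 fold change 0.63, adjusted p = 0.121), nor did Ephx2, a soluble epoxide hydrolase gene, over 3 (-1.46, adjusted p = 0.172).

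**Figure D4:**
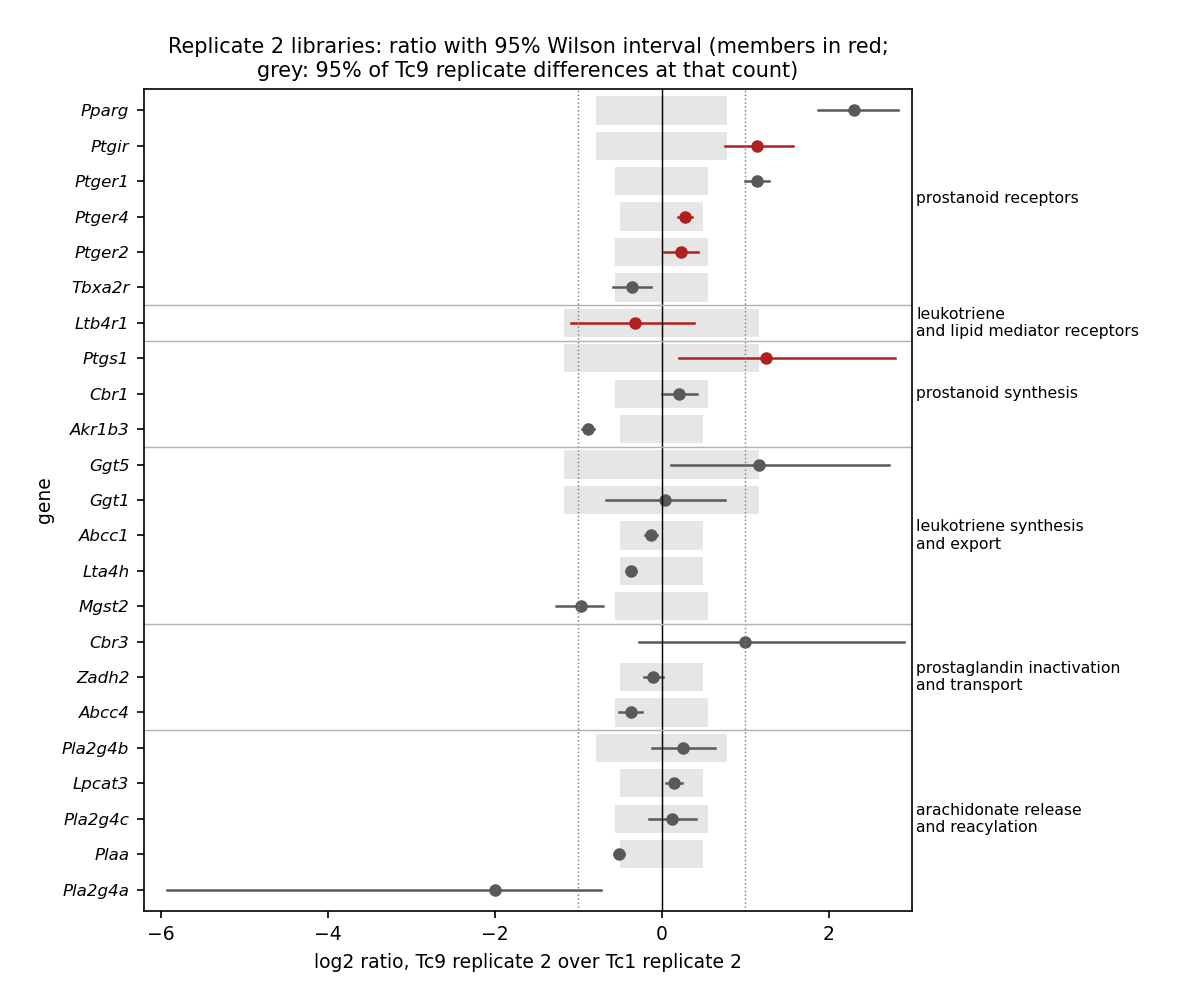
Log2 ratio of Tc9 replicate 2 over Tc1 replicate 2 for members (red) and other pathway genes (grey) with at least 10 counts in one library, by role; lines are 95% Wilson intervals, grey bands hold 95% of the differences between the Tc9 replicates at that count, and dotted lines mark 2-fold. Ptgir at 1.14 and Pparg at 2.3 lie beyond their bands, Ptger4 and Ptger2 lie inside theirs.

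The other lists held the steps around the members. In Tc9 replicate 2, the genes with the most FPKM in the list for arachidonic acid release and storage were Pla2g12a (55.36), Acsl4 (42.79) and Plaa (31.72). Of that list, 5 genes had enough counts for the ratio. Of these, 1, Pla2g4a at 10 and 1 counts, was beyond 2-fold and lower in Tc9, where 4.95% of all genes were. It had 10 counts in the Tc1 library alone, so this is no support for a difference. Plaa had 4870 counts in Tc1 replicate 2 and 3420 in Tc9 replicate 2. Its log2 ratio of -0.51 was beyond the Tc1 spread at its count (0.16) and just beyond the Tc9 spread (0.49). In prostanoid synthesis the genes with the most FPKM were Ptges3 (79.92), which also serves as the HSP90 cochaperone p23, Akr1b3 (62.3) and Cbr1 (13.54). In inactivation and transport they were Zadh2 (11.66), Ptgr2 (6.88) and the exporter gene Abcc4 (4.38). In leukotriene synthesis and export they were Lta4h (65.71), Abcc1 (16.96) and Mgst2 (10.17). Of 5 genes with enough counts there, 2 were higher in Tc9 (3261 of all 6225 genes were). Ggt5, at 6 and 16 counts, was the 1 gene at least 2-fold higher, where 10.9% of all genes were, and it had 10 counts or more in the Tc9 library alone. Mgst2, a glutathione transferase with leukotriene C4 synthase activity, had 294 and 149 counts (log2 ratio -0.97). This was beyond the spread of 95% of replicate differences at its count in Tc1 (0.26) and Tc9 (0.56), with no test. Among receptors for leukotrienes and related lipids, Gpr132 (33.81), Cysltr2 (6.4) and Cysltr1 (4.06) were above Ltb4r1, and they were reached by the table of Tc9 replicate 2 alone. Gnas, the stimulatory G protein gene (525.12), Prkar1a (109.87) and Akap13 (49.27) led the cyclic AMP relay through which EP2, EP4 and the prostacyclin receptor signal.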

How the data were processed

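RNA-seq of sorted tumor-infiltrating Tc1 and Tc9 cells was analysed as deposited. The unnormalized expected counts of each gene are the authors' own, as are the deposited FPKM values scaled by gene length and library size, with a gene length in bases. The submitters' notes name mm10, and the aligner and counting program are not given in the sources used here. Each table stops at a different gene identifier (12613, 26889, 17532 and the whole list), so each comparison used the range its libraries share: 1681 genes for 4 libraries, 3436 for 3 and 7829 for replicate 2. An incomplete last row (1) was dropped. Depth came from the count to FPKM ratio against Tc9 replicate 2 over genes whose length agreed and that had 500 counts or more. TMM factors (0.983 to 1.02) of the 4-library range were used throughout.

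The deposited expected counts were rounded and tested with edgeR 4.0.16 in R 4.3.3 (quasi-likelihood, two-sided, filterByExpr minimum count 10, Benjamini-Hochberg over all genes, threshold 0.05). The SE is the size of the log2 fold change over the square root of F. The replicate 2 ratio used a prior count of 2 and a 95% Wilson interval. The intervals and the 3-count floor reflect counting error alone, because the reads carry no molecular identifiers. An exact permutation test of 2 against 2 cannot go below 0.333. The test was checked on simulated counts with the same spread in both groups. The spread of these data is wider in Tc9 than in Tc1, and the check does not cover that. Alternatives used DESeq2 1.42.0, limma 3.58.1, other filters, scalings and pseudocounts of 1 and 0.1 FPKM. The members and lists were chosen with earlier results of these data known, and the replicate spread by count and the GC box search were added after values or sequences were seen. Named pathway genes are those past a threshold, those at least 2-fold apart between the replicate 2 libraries, and the 3 of each list with the most FPKM in Tc9 replicate 2; genes named beyond these, with values, were chosen after their values were seen. Genome positions are from GENCODE on GRCm38, and promoter windows from RefSeq matched 9 of 10 members by symbol.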

Additional observations from a re-analysis of the deposited data

How the results depend on the processing

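Over 4 libraries, 224 genes were higher and 214 lower in Tc9. Without the count filter these were 130 and 110, and leaving out 1 library in turn gave 72 to 404 and 39 to 407. Fewest calls came without Tc1 replicate 1 (72 and 39) or Tc1 replicate 2 (82 and 54), most without Tc9 replicate 1 (404 and 407) or Tc9 replicate 2 (343 and 351). The fit with a replicate block gave 231 and 213 and kept the calls of Alox15 and Akr1b3. Whether same-numbered libraries share more than a number is not given in the sources used here. The correlation of their deviations was -0.0607, which cannot decide it. Over 3 libraries, 197 were higher and 84 lower, against 371 and 163 with depth alone, 327 and 208 with TMM factors of that range and 305 and 154 at a minimum count of 30. At an adjusted p threshold of 0.1, 144 were lower. Without the filter edgeR called 0 and 0, although 598 genes had an unadjusted p under 0.05, and DESeq2 called 217 and 121. Of the calls, 70.1% were higher, and 61.1% with the TMM factors of that range. The cause was not tested. Ptgdr2 turned to -0.353 without Tc9 replicate 1 and was 0.30 without Tc9 replicate 2. Alox5ap without the filter ranged from -0.71 to 1.09 over the libraries left out and was -0.104 without Tc1 replicate 1. On the log2(FPKM + 1) scale, 272 genes were at least 2-fold higher and 109 lower between the replicate 2 libraries, with Ptgs1 at 0.165 and Ptgir at 0.616, since the pseudocount shrinks low genes. At these depths Ptgs1, Ptgs2, Ptgdr2 and Alox5ap rest on at most 17 counts in a library, which limits what can be said of them.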

Other observations

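The cyclic AMP relay, which carries the signal of EP2, EP4 and the prostacyclin receptor, had 17 genes with enough counts in the replicate 2 libraries, of which 11 were higher in Tc9 (3261 of all 6225 genes were) and 2, Crem and Adcy9, were at least 2-fold higher (10.9% of all genes were). The median log2 ratio was 0.16, against 0.03 over all genes, and a share of 2 in 17 is near that of all genes. Over 4 libraries, 0 of the 4 relay genes tested, Adcy9 among them, passed the edgeR threshold, where 34.1% of all genes did. Crem passed it over 3, as given above. The catalytic subunit genes of protein kinase A were both higher in the Tc9 library: Prkacb had 2657 counts in Tc1 replicate 2 and 3967 in Tc9 replicate 2 (1.49-fold, log2 interval 0.51 to 0.65), and Prkaca had 1090 and 1540 (1.41-fold, 0.39 to 0.61). Of the regulatory subunit genes, the more abundant Prkar1a had 11267 and 11068 counts (log2 ratio -0.02) and Prkar2a had 2435 and 1944 (-0.32). Among phosphodiesterase genes, whose enzymes break down cyclic AMP, Pde4a had 95 and 168 counts (1.75-fold, 0.46 to 1.19) and Pde7a had 5353 and 4592 (log2 ratio -0.22), while the log2 ratios of Pde3b, Pde4b, Pde4d and Pde8a were 0.34, 0.16, 0.155 and -0.0042. These are ratios of 1 library a group with no test. The log2 ratio of Prkacb (0.58) was beyond the spread of 95% of replicate differences at its count in Tc9 (0.49) and Tc1 (0.16). Those of Prkaca (0.50) and Pde4a (0.81) were beyond the Tc1 spread (0.16 and 0.54) and at the edge of the Tc9 spread (0.493 and 0.785), and they fell inside the latter, at 0.468 and 0.78, with TMM factors of the replicate 2 range. Those of Prkar2a and Pde7a were within the Tc9 spread (0.49) and beyond the Tc1 spread (0.16). These genes were chosen after their values were seen.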
